A study of Mus musculus with 4514 samples.

Results

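Nuclei released from mouse hepatocytes at postnatal day 18 (P18) and sorted by DNA content were compared: 46 nuclei labelled 4N against 103 labelled 2N. They are 149 of the 991 nuclei used here, from a series of 4514 samples, and were chosen by their age and ploidy labels alone. All nuclei came from liver of mice carrying Alb-Cre and Rosa-tdTomato, in which a recombinase driven by an albumin promoter switches on a red reporter in hepatocytes, and no treatment is given. The hepatocytes were sorted by flow cytometry and broken open, and their nuclei were stained with DAPI, a DNA dye, and sorted singly for well-based mSTRT-seq, a tag-counting method. For comparison, 2N and 4N nuclei of P0 (107 and 12), P9 (75 and 21) and P60 (340 and 161) were used, with P60 nuclei from cells labelled 1x2N and 1x4N (57 and 69). No label names an animal, litter or plate, so each group is 1 pool, P18 differences are given without a test, and intervals cover counting error only.

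A nucleus with doubled DNA can be of either of 2 kinds. A diploid cell that has copied its DNA and not yet divided is in the G2 phase and makes the RNAs of mitosis. A polyploid hepatocyte nucleus keeps the doubled genome while resting. Rodent hepatocytes become polyploid around weaning, when some cells copy their DNA without completing cell division, and E2f7 and E2f8 are known drivers of that step in mice. DNA content alone does not separate the kinds, and the markers used here to describe the first are Top2a, the topoisomerase that untangles copied chromosomes, Mki67, a coat protein of mitotic chromosomes, and Kif11, the motor that separates the spindle poles.

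The promoters of these marker genes are shown because genes of G2 and mitosis commonly share short elements just before their start. RefSeq sequences on GRCm38.p6 from 250 bases before to 50 after the start are given 5′ to 3′, in the direction of transcription, for Top2a (chr11:99024140-99024439, minus strand), Mki67 (chr7:135716330-135716629, minus strand) and Kif11 (chr19:37376132-37376431, plus strand). Capitals mark TTTGAA, the letters of the cell cycle homology region, and CCAAT, both searched on both strands.
Top2a: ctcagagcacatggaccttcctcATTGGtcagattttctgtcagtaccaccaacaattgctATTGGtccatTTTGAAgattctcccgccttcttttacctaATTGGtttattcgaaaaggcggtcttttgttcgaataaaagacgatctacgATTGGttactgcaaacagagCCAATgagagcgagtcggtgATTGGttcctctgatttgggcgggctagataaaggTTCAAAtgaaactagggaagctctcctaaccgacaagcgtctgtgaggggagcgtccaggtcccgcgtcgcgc
Mki67: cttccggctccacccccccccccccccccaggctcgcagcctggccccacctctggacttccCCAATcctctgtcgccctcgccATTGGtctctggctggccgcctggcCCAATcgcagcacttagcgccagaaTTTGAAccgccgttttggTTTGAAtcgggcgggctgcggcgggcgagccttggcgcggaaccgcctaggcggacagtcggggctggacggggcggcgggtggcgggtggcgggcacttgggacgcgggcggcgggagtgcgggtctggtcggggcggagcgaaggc
Kif11: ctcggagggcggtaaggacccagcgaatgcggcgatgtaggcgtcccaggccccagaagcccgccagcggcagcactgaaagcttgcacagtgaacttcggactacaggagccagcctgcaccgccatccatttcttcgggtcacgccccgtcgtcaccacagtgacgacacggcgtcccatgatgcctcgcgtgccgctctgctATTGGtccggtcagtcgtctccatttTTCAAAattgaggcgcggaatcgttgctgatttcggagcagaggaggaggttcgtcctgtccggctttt
Top2a held 2 matches of TTTGAA and 6 of CCAAT, Mki67 held 2 and 3, and Kif11 held 1 and 1. Of 32817 RefSeq promoters of this length, 17.9% held TTTGAA and 37.4% held CCAAT. Of the 55 promoters matched to 51 genes of a list of 60 genes of G2 and mitosis, 74.5% held TTTGAA and 69.1% held CCAAT. A match describes the letters in this window and shows no binding.

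The 2N nuclei held 13979287 counts, from 5298 to 737398 per nucleus with a median of 95791, and the 4N nuclei held 7454468, from 17982 to 498024 with a median of 155781. The median nucleus had counts of 3843 genes in 2N and 4793 in 4N. Spike-in RNA split the nuclei into sets that the labels do not name. Of the 2N nuclei, 39 had no spike-in count, 25 had between 0.933 and 3.3 spike-in counts per 100 gene counts, and 39 had between 8.15 and 148. Of the 4N nuclei, 9 had none, 0 lay in the low set and 37 had between 3.64 and 114. The sets differed within 1 ploidy as well: high-spike 2N nuclei were at least 2-fold above no-spike 2N nuclei for 967 of 9206 measured genes (10.5%) and at least 2-fold below for 1767 (19.2%). Low-spike 2N nuclei were above no-spike 2N nuclei for 12.9% and below for 21.1%, and high-spike were above low-spike 2N nuclei for 17.1% and below for 17.7%. In 4N, high-spike nuclei were above no-spike nuclei for 19.7% and below for 16.2%. The main P18 differences below are therefore also given within the no-spike and the high-spike nuclei, with limits set after the values were seen. What made the sets, and their part in a difference seen over all nuclei, was not tested. Alb, which encodes albumin and marks hepatocytes, was counted in all 149 nuclei, at 1712 CPM or more (CPM being counts scaled to 1000000 gene counts per nucleus or pool).

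**Figure D1:**
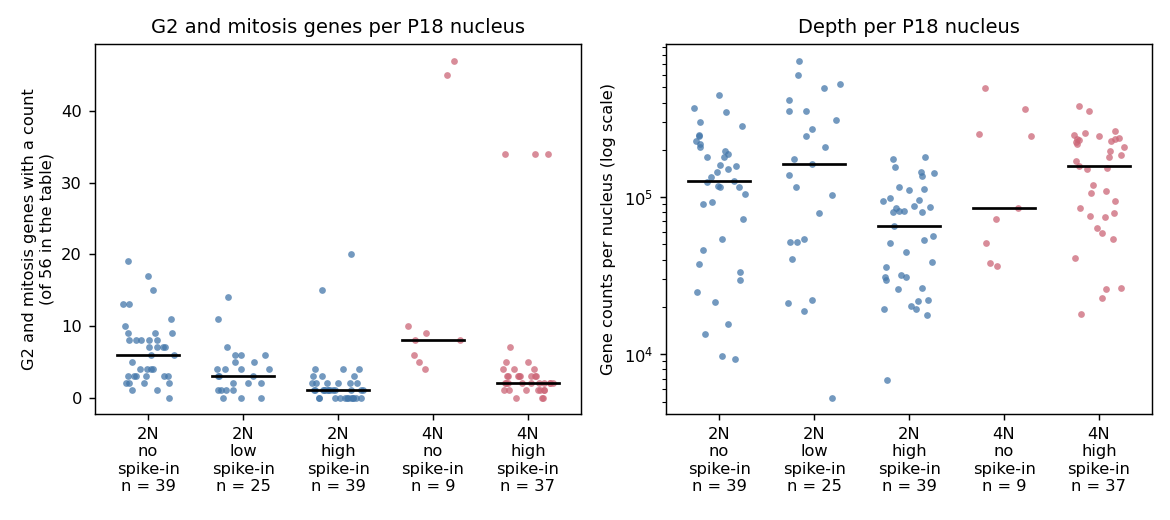
Genes of the G2 and mitosis list with a count (left) and total gene counts on a log axis (right) in each P18 nucleus, by ploidy and spike-in set, with 1 point per nucleus and a bar at the median. In 4N, 5 nuclei stand at 34 to 47 genes, while the highest 2N nucleus stands at 20 and all other 4N nuclei at 10 or fewer.

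RNAs of G2 and mitosis were higher in the 4N pool, and nearly all of the excess lay in 5 of its 46 nuclei. The 56 genes of the list found in the table gave 10024 counts in 4N and 2810 in 2N, or 1345 and 201 CPM of the summed counts, a 6.69-fold difference. Of these genes, 53 were higher in 4N, 2 were lower and 1 had no count. Those 5 nuclei had counts of 34, 34, 34, 45 and 47 list genes and list levels from 5677 to 12149 CPM. They held 90.9% of the list counts of the 4N pool. They make up 10.9% of the 4N nuclei (95% exact binomial interval 3.63 to 23.6%), and 2 were no-spike and 3 high-spike nuclei. No 2N nucleus reached 25 list genes (0 of 103, which allows a share of up to 2.91%). The 2N nuclei nearest to them had 20 and 19 list genes at 2834 and 1692 CPM. Among the other 4N nuclei the highest list level was 2836 CPM, in a nucleus with no Top2a or Mki67 count.

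The median nucleus had counts of 3 list genes in both groups. The other 41 4N nuclei had a summed list level of 141 CPM. Since the 5 were picked by this list, and all are 4N, that level cannot be set against the 2N pool, which keeps its highest nuclei.

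Top2a was counted in more 2N than 4N nuclei but at far higher levels in the 4N nuclei that had it. In 2N it ranged from 0 to 384 CPM and in 4N from 0 to 826 CPM, with a median of 0 in both. It gave 104 counts over 27 of 103 2N nuclei and 510 over 8 of 46 4N nuclei, or 7.44 CPM of the summed counts (95% Poisson interval 6.08 to 9.01) against 68.4 (62.6 to 74.6). The G2-rich nuclei held 99% of the 4N counts, and the other 41 together had 5 counts in 3 nuclei. The groups overlap, and the 4N nuclei at 809 and 826 CPM lie above every 2N nucleus.

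Mki67 ranged from 0 to 322 CPM in 2N and from 0 to 1257 CPM in 4N. It gave 112 counts in 23 2N nuclei and 698 in 10 4N nuclei, or 8.01 CPM (6.6 to 9.64) against 93.6 (86.8 to 101). All 5 G2-rich nuclei had Mki67, and 94.8% of its 4N counts were in them. Kif11 ranged from 0 to 277 CPM in 2N and from 0 to 519 CPM in 4N, with 98 counts in 17 nuclei against 190 in 7, or 7.01 CPM (5.69 to 8.54) against 25.5 (22 to 29.4). One of the G2-rich nuclei had no Kif11 count.

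For 2 of the 3 markers the difference was larger in no-spike than in high-spike nuclei. By mean CPM the log2 difference of Top2a was 2.30 over all nuclei (pseudocount 1 CPM), 3.63 in no-spike and 0.90 in high-spike nuclei. That of Kif11 was 1.80, 3.26 and 0.20, and that of Mki67 was 3.45, 3.24 and 4.00. In the high-spike nuclei, which include 37 of the 46 4N nuclei, Top2a and Kif11 were thus less than 2-fold apart. These values rest on very few nuclei. Of 39 high-spike 2N nuclei, 2 had Top2a (34 counts, 31 of them in 1 nucleus) and 1 had Kif11 (26 counts). Of the 37 4N nuclei, 3 had Top2a (141 counts) and 4 had Kif11 (45 counts). Without nuclei with counts of at least 3 markers of another cell type, a step added after seeing the data, Top2a stood at 0.76, Kif11 at 0.88 and Mki67 at 4.36.

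The share of nuclei with a Top2a or Mki67 count ran opposite to the summed level. It was 37.9% in 2N (39 of 103, interval 28.5 to 48%) and 23.9% in 4N (11 of 46, 12.6 to 38.8%). The share followed the spike-in set more than the ploidy: 64.1% of 2N and 66.7% of 4N no-spike nuclei had a count, against 12.8% and 13.5% of high-spike nuclei. Most positive 2N nuclei had little of either RNA, with a median of 2 counts of the pair among 2N nuclei that had any and of 32 in 4N. With at least 3 counts of either gene asked for, the share was 7.77% in 2N (8 nuclei, 3.41 to 14.7%) and 15.2% in 4N (7 nuclei, 6.34 to 28.9%). With each nucleus thinned to 22000 counts, it was 12.4% of 89 2N nuclei (6.33 to 21%) and 17.8% of 45 4N nuclei (8 to 32.1%). With 1 pool per group, the difference in share has no test.

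Within the G2 and mitosis list, 17 genes had a count in at least 15 of the P18 nuclei, the limit used for measured genes. Of these, 16 were at least 2-fold higher in 4N by mean CPM per nucleus, 0 were at least 2-fold lower, and the median log2 difference was 2.31. Of all 9206 measured genes, 436 were at least 2-fold higher in 4N (4.74%) and 700 at least 2-fold lower (7.6%), with a median of -0.02. Both spike-in sets gave at least 2-fold higher 4N levels for 12 of the 17, against 206 of all genes (2.24%), with list medians of 3.37 in no-spike and 2.08 in high-spike nuclei. A gene seen in few nuclei passes the limit more easily where it is high, so the 17 are not the whole list.

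By role, the members with the largest differences were Birc5, survivin, which guides chromosomes to the spindle, Prc1, which bundles the midzone microtubules, Cenpf, a kinetochore protein, and Mki67. Birc5 was at 1.36 CPM in 2N and 55.9 in 4N (log2 4.59, with 5.22 in no-spike and 4.11 in high-spike nuclei), with a highest nucleus of 49.6 and 1613 CPM. Prc1 was at 0.76 and 26 CPM (log2 3.94, with 4.62 and 4.03 in the sets) and Cenpf at 1.02 and 29.2 CPM (log2 3.90, with 5.43 and 2.88), each with counts in 7 2N and 8 4N nuclei. Without the 5 G2-rich nuclei, whose removal lowers 4N alone, the log2 difference was 4.42 for Birc5, 1.68 for Prc1 and 0.82 for Cenpf. Birc5 thus stayed high outside the G2-rich nuclei, and its 4N mean rests largely on the 1 nucleus at 1613 CPM. Birc5 was lower in 4N at P0 (3.97 and 0 CPM of summed counts) and P9 (23.1 and 1.33 CPM). Further members stayed under the limit of 15 nuclei. Ckap2, a spindle protein, gave 2 counts in 2N and 255 in 4N, and Racgap1, a cytokinesis regulator, gave 8 and 245. Incenp, a member of the chromosomal passenger complex, gave 5 and 193. Cdk1, the kinase that starts mitosis, gave 20 and 121, and its partner Ccnb1, cyclin B1, gave 4 and 65. Ccna2, cyclin A2, was one of the 2 genes that ran the other way, with 17 counts in 2N and 1 in 4N.

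When nuclei with any Top2a or Mki67 count were left out, 64 2N and 35 4N nuclei remained. Of the genes of the list, 25 were then higher and 24 lower in 4N by summed counts, with 7 without a count, Top2a and Mki67 by construction among them. Of the other 15 measured genes, 5 were at least 2-fold higher, 3 lower and 7 between, with a median log2 of 0.28. Kif11, not used for the exclusion, changed sign to a log2 difference of -0.58, on 86 counts in 6 2N nuclei and 17 counts in 3 4N nuclei. On these smaller groups, genes at least 2-fold apart did not become fewer: 686 were higher (7.45%) and 947 lower (10.3%). Without the 5 G2-rich nuclei alone, 425 were higher (4.62%) and 855 lower (9.29%). All 5 G2-rich nuclei carried Top2a and Mki67, so leaving out nuclei with either count removed them together with 6 other 4N and 39 2N nuclei. It took out 25 of 39 no-spike, 9 of 25 low-spike and 5 of 39 high-spike 2N nuclei. In 4N it took out 6 of 9 no-spike and 5 of 37 high-spike nuclei. The effect of fewer nuclei and of the changed mix of spike-in sets on the number of genes apart was not tested.

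The marker genes were also higher in 4N nuclei of the other ages, whose nuclei are separate from those of P18. Top2a was at 8.27 CPM in 2N and 133 in 4N at P0, at 1.88 and 228 at P9, and at 0.415 and 1.29 at P60. Mki67 was at 22.9 and 30.1 CPM at P0, 12.9 and 202 at P9, and 0.342 and 1.39 at P60. Kif11 was at 1.43 and 53.4 CPM at P0, 4.22 and 214 at P9, and 0.366 and 1.43 at P60. Some of these levels rest on few nuclei: at P0, the 4N counts of Kif11 came from 1 of 12 nuclei and those of Top2a and Mki67 from 3 each, and the share of nuclei with Kif11 was 8.33% in 4N and 8.41% in 2N. At P60, Top2a gave 17 counts in 5 of 340 2N nuclei and 38 counts in 3 of 161 4N nuclei, near the floor. By summed counts, the 4N level was the higher at all 4 ages for all 3 genes, and an exact two-sided permutation test over 4 pairs cannot go below p = 0.125. The 57 1x2N and 69 1x4N nuclei of P60 had 0 counts of Top2a and 0 and 1 counts of Mki67, while Kif11 was at 1.27 and 8.87 CPM there. By median of the 17 measured list genes, the 4N over 2N log2 difference was 2.34 at P0, 4.34 at P9 and 0.10 at P60.

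**Figure D2:**
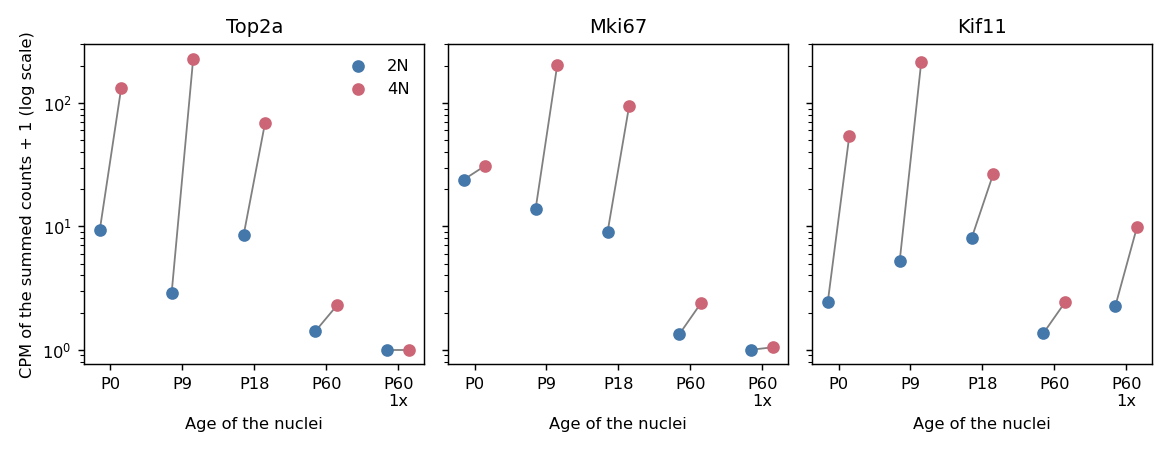
CPM of the summed counts of Top2a, Mki67 and Kif11, plus 1, on a log axis, for the 2N pool (blue) and the 4N pool (red) of each age, with a line joining the pair. The 4N pool lies above the 2N pool at P0, P9, P18 and P60, and both are near the floor of the axis at P60.

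With the pools of 4 ages as replicates and age as a block, edgeR's quasi-likelihood test gave Top2a a log2 difference of 3.82 ± 0.78 (SE, 8 pools, p = 0.000583, adjusted p = 0.999). Kif11 stood at 3.62 ± 0.83 (p = 0.00131, adjusted p = 0.999) and Mki67 at 2.52 ± 0.67 (p = 0.00355, adjusted p = 0.999). Of 11276 genes tested, 0 passed an adjusted p of 0.05 (0% called) and 279 had an unadjusted p under 0.05. DESeq2 on the same pools called 14 genes, all higher in 4N, of which 12 are on the G2 and mitosis list, Top2a (adjusted p = 6.81e-05), Mki67 (0.0185) and Kif11 (0.000346) among them. The edgeR spread was large, with a common biological coefficient of variation of 0.652.

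Without P18, over P0, P9 and P60, edgeR gave Top2a 4.12 ± 0.93 (p = 0.000787), Kif11 4.35 ± 0.89 (p = 0.000371) and Mki67 2.06 ± 0.79 (p = 0.0224), each with an adjusted p of 0.999 in 11346 genes. DESeq2 did not call Mki67 there (adjusted p = 0.332). Again 0 genes were called (0%), with 253 at an unadjusted p under 0.05 and 14 called by DESeq2. Whether the P18 difference departs from that of the other ages was tested as an interaction: 0 of 11276 genes were called by edgeR (0%), with 113 at an unadjusted p under 0.05, and 7 by DESeq2. For Top2a the interaction was -0.91 ± 1.59 on the log2 scale (p = 0.58, adjusted p = 1). In simulated pools with the same spread, this interaction test recovered 0% of genes changed 16-fold, so 0 calls there do not show that the ages were alike. Over all genes tested, the median log2 difference was -0.15, -0.19 and 0.18 in the 3 fits, and gene values are to be read against it.

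Genes of S phase were higher in 4N among no-spike nuclei and not among high-spike nuclei. Of 25 measured S phase genes, 4 were at least 2-fold higher over all nuclei and 0 lower (all genes 4.74% and 7.6%), with a median log2 of 0.28. In no-spike nuclei 13 were higher and 3 lower (median 1.01), where 11.6% of all genes were higher and 20% lower. The no-spike 4N nuclei number 9, and 2 of them are G2-rich. Without the 5 G2-rich nuclei, whose removal changes 4N alone, the S phase median over all nuclei was -0.19. In high-spike nuclei 3 were higher and 3 lower (all genes 12.7% and 8.26%), with a median of -0.04. Cdc45, Brca1 and Mcm10, of the replication and repair machinery, were among the 4 genes higher over all nuclei. Cdc45 was at least 2-fold higher in both sets. Brca1 was at 10.2 and 26.9 CPM (log2 1.32), which came from no-spike nuclei (3.43) and not from high-spike nuclei (-0.04). Of 23 measured polyploidy regulators, 2 were at least 2-fold higher, E2f5 and Rbl1, and 0 lower (all genes 4.74% and 7.6%). So few genes do not set the list apart. The median was -0.09, with -0.26 in no-spike and 0.29 in high-spike nuclei, and 0 members were at least 2-fold higher in both sets. E2f7 gave 6 counts in 2N and 151 in 4N, from 6 and 3 nuclei, and E2f8 gave 25 and 119, from 5 and 6 nuclei. Mean E2f7 was 0.169 and 46 CPM in no-spike nuclei and 1.44 and 0.176 CPM in high-spike nuclei. Of 12 measured p53 targets, 0 were at least 2-fold higher and 2 lower (all genes 4.74% and 7.6%). Cdkn1a, the p21 cell cycle inhibitor, was at 40.9 CPM in 2N and 13.9 in 4N (log2 -1.49), with -1.26 in no-spike and 0.29 in high-spike nuclei.

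The 4N nuclei of the high-spike set had more gene counts and a lower spike-in share than the 2N nuclei of that set. Median counts were 65331 in 2N and 157829 in 4N, and median genes were 3392 and 4718. The median was 13.5 spike-in counts per 100 gene counts in 2N, ranging from 8.15 to 148, and 7.27 in 4N, ranging from 3.64 to 114. Gene counts per spike-in count were thus 1.86 times as high in 4N by the medians, while the ranges overlap. P60 nuclei labelled 1x gave 13.6 and 6.05 per 100, a ratio of 2.25. The order was not the same in every pair: medians were 13.8 and 9.82 at P0, 2.67 and 3.53 at P9, and 0.958 and 0.512 at P60. No-spike nuclei at P18 had the reverse order of depth, with median counts of 125965 in 2N and 84779 in 4N. After thinning to 22000 counts, the median number of genes was 3008 in 2N and 3710 in 4N among high-spike nuclei, and 3520 and 4150 among no-spike nuclei, so 4N nuclei spread the same number of counts over more genes in both sets.

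**Figure D3:**
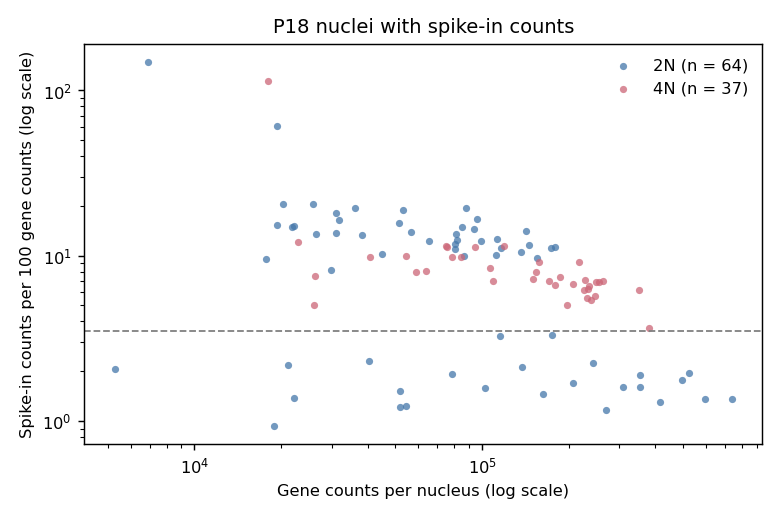
Spike-in counts per 100 gene counts against gene counts per nucleus, both on log axes, for the P18 nuclei with any spike-in count, with a dashed line at 3.5. All 37 4N nuclei lie above the line, while 25 of the 2N nuclei lie below it, and above it 4N nuclei sit further right and lower than 2N nuclei.

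Most zonated genes were not 2-fold apart between 4N and 2N nuclei, and the few that were had lower levels in 4N. Hepatocytes next to the central vein make glutamine with Glul, glutamine synthetase, and take up glutamate with Slc1a2, and hepatocytes near the portal vein express Cyp2f2 and Hal, the first enzyme of histidine breakdown. Of 26 measured pericentral genes, 0 were at least 2-fold higher and 2 lower, Glul and Slc1a2, a share near the 7.6% of all genes that were lower. Both were also at least 2-fold lower in each spike-in set (all genes 2.43%). Of 31 measured periportal genes, 0 were higher and 4 lower: Cyp17a1, Aldh1b1, Cyp2f2 and Sdsl. Of these, Aldh1b1 was lower in both sets, while Sdsl stood at 3.32 in no-spike and -2.25 in high-spike nuclei. List medians were -0.04 and -0.23.

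Glul (GRCm38 chr1:153899944-153909723) ranged from 0 to 5719 CPM in 2N with a median of 14.2, and from 0 to 964 CPM in 4N with a median of 40.4. More 4N than 2N nuclei had a count, 78.3% against 61.2%, but the mean was 102 CPM in 4N and 339 in 2N (log2 -1.72), with -1.23 in no-spike and -1.88 in high-spike nuclei. The difference lay in the highest nuclei. Above 500 CPM, a limit chosen after the values were seen, were 13 of 103 2N nuclei (12.6%, interval 6.89 to 20.6%) and 1 of 46 4N nuclei (2.17%, 0.055 to 11.5%).

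Slc1a2, the glial-type glutamate transporter, was found in 18 2N and 6 4N nuclei and ranged to 2875 and 196 CPM. Its mean was 81.5 CPM in 2N and 6.96 in 4N (log2 -3.37, with -2.99 in high-spike nuclei and 0 counts in the 9 no-spike 4N nuclei). All 4 2N nuclei above 500 CPM of Slc1a2 were also above 500 CPM of Glul, and together they held 2 counts of Cyp2f2. Glul was lower in 4N at every other age too. It was at 218 and 124 CPM at P0, 122 and 113 at P9, and 424 and 243 at P60, and over those ages edgeR gave -0.63 ± 0.28 (p = 0.0437, adjusted p = 0.999). Slc1a2 was at 474 and 291 CPM at P60. At P0 and P9 it had 25 and 6 counts in 2N and 0 in the 12 and 21 4N nuclei, too few at P9 to give a direction.

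At the portal end, Cyp2f2, a cytochrome P450, ranged from 0 to 965 CPM in 2N with a median of 7.32, and from 0 to 562 CPM in 4N with a median of 0. The log2 difference was -1.33, with -3.64 in no-spike and -0.96 in high-spike nuclei. Hal fell just short of 2-fold over all nuclei (364 and 185 CPM, log2 -0.97) and passed it within both sets (-1.34 and -1.17). At the other ages Hal was at 143 and 23.3 CPM at P0, 147 and 56.1 at P9 and 417 and 332 at P60 (edgeR -1.46 ± 0.41, p = 0.00316, adjusted p = 0.999). Aldh1b1, a mitochondrial aldehyde dehydrogenase, was seen in 17 2N nuclei and in 1 4N nucleus (log2 -2.4). Cyp2e1, a broadly pericentral cytochrome P450, stood on the other side, at 1229 CPM of summed counts in 2N and 2240 in 4N, though its no-spike difference was -0.20. It was also higher in 4N at P0 (167 and 501 CPM), P9 (471 and 692 CPM) and P60 (1075 and 1479 CPM), at 0.80 ± 0.25 by edgeR over these ages (p = 0.0126, adjusted p = 0.999).

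**Figure D4:**
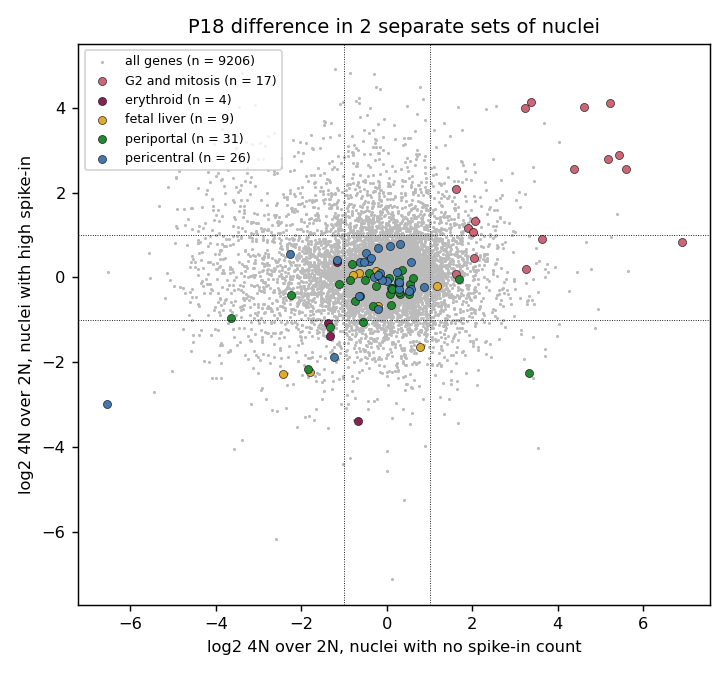
The log2 difference of 4N over 2N mean CPM in no-spike nuclei (horizontal) and in high-spike nuclei (vertical), for all 9206 measured genes (grey) and the measured members of 5 lists, with dotted lines at 2-fold. G2 and mitosis genes sit at the upper right, and Glul, Slc1a2, H19 and Tff3 at the lower left, while grey points scatter with no common direction.

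Genes of fetal liver were lower in 4N nuclei, by less within the spike-in sets than over all nuclei. Of 9 measured fetal genes, 0 were at least 2-fold higher and 4 lower (all genes 4.74% and 7.6%). The median log2 was -0.96 over all nuclei, -0.25 in no-spike and -0.26 in high-spike nuclei. H19 (GRCm38 chr7:142575529-142578143), an imprinted noncoding RNA, ranged from 0 to 1971 CPM in 2N and from 0 to 153 CPM in 4N, with a median of 0 in both. It was counted in 50 of 103 and in 10 of 46 nuclei, and its mean was 88.8 CPM in 2N and 11.6 in 4N (log2 -2.84). The difference held in no-spike (-1.80) and high-spike nuclei (-2.23). Tff3, a trefoil peptide of immature and biliary epithelium, gave 609 counts in 20 2N nuclei and 3 counts in 3 4N nuclei (log2 -3.46, with -2.44 and -2.29 in the sets). Peg3 and Grb10, imprinted growth regulators, did not hold: Peg3 was -1.56 over all nuclei but -0.20 and -0.68 within the sets, and Grb10 was -1.28 but 0.11 and -0.26. Low-spike nuclei, all 2N, had 291 CPM of Grb10 and 198 of Peg3, against 114 and 61 in no-spike 2N nuclei. Igfbp2, an insulin-like growth factor binding protein, was at 256 and 82.7 CPM over all nuclei (log2 -1.62, with -1.06 and -0.39 in the sets), and at 462 CPM in low-spike 2N nuclei.

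Afp, alpha-fetoprotein, was at 10.8 CPM of summed counts in 2N (interval 9.15 to 12.7) and 11.7 in 4N (9.35 to 14.4), which do not differ beyond counting error. By mean over nuclei it was at 18 and 8.78 CPM (log2 -0.96), with 0.77 in no-spike and -1.65 in high-spike nuclei. At the other ages it was lower in 4N, at 6218 and 2542 CPM at P0, 1153 and 496 at P9, and 11.3 and 6.48 at P60 (edgeR -1.16 ± 0.25, p = 0.000268, adjusted p = 0.999). By edgeR's interaction test, the P18 difference of H19 lay -2.88 ± 0.58 from that of the other ages (p = 0.00042, adjusted p = 1) and was not called. DESeq2 called H19 (log2 -2.95, adjusted p = 0.0153) together with Tff3 (-6.64, adjusted p = 0.00215). Both genes were named for their P18 differences, which makes a departure at P18 more likely, so these values are not separate support.

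Genes that mark nuclear maturation were defined without P18 nuclei, as the 100 genes most above and the 100 most below in P60 2N against P0 2N nuclei. Of 59 measured genes of the P0 end, 2 were at least 2-fold higher and 22 lower in P18 4N nuclei (all genes 4.74% and 7.6%). Their median log2 was -0.82. The P0 end also holds S100a8 and Hbb-bs, blood cell RNAs that are described below with the markers of other cells. Within the sets the medians were -0.20 and -0.16, and 6 of the 59 were at least 2-fold lower in both (all genes 2.43%). At least 2-fold lower were 16 in no-spike and 14 in high-spike nuclei (all genes 20% and 8.26%). Higher were 3 and 4 (all genes 11.6% and 12.7%). Of 93 measured genes of the P60 end, 10 were higher and 5 lower (all genes 4.74% and 7.6%). Their median was 0.27 over all nuclei, -0.22 in no-spike and 0.09 in high-spike nuclei. By list medians, the shift toward the P60 end seen over all nuclei was thus small or absent within the sets. Genes of the P0 end past 2-fold were still mostly lower in 4N within each set.

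Hepatocyte identity and metabolism were close in the 2 groups. Of 14 measured hepatocyte genes, 0 were at least 2-fold apart (median 0.02, with -0.37 in no-spike and -0.11 in high-spike nuclei), as were 0 of 29 plasma protein genes (median -0.16, with -0.62 and -0.03) and 0 of 19 bile acid genes (median -0.10, with 0.01 and 0.10). In no-spike nuclei alone, 6 of the plasma protein genes and 2 of the hepatocyte genes were at least 2-fold lower (all genes 20%). Alb ranged from 1712 to 86742 CPM in 2N and from 2380 to 27214 CPM in 4N, with medians of 6588 and 9192, and its log2 difference was -1.11 in no-spike and -0.16 in high-spike nuclei. Of 38 drug metabolism genes, 1 was lower, Cyp2f2, and of 10 urea cycle and nitrogen genes, 1 was lower, Glul (all genes 7.6%). Of 30 hepatocyte transcription factors, 1 was lower: Usf1, a basic helix-loop-helix factor of lipogenic promoters, at 14.7 and 3.69 CPM (log2 -1.74, with -1.27 and -2.64 in the sets) from 21 2N and 3 4N nuclei.

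Of 7 lipid and sugar genes at least 2-fold apart over all nuclei, 5 had opposite signs in the sets. Pfkl, a phosphofructokinase, had -1.11 over all nuclei, 1.13 in no-spike and -1.46 in high-spike nuclei, and Ppp1r3c, a glycogen-targeting phosphatase subunit, had 1.03, -1.88 and 0.70. Fasn, fatty acid synthase, was at 39.6 and 98.2 CPM (log2 1.29), counted in 38 of 103 and 35 of 46 nuclei, with -1.78 in no-spike and 0.78 in high-spike nuclei. Scd1, the stearoyl-CoA desaturase, had 1.28 over all nuclei, and -0.61 and 0.45. Fdps, of cholesterol synthesis, had 1.41 over all nuclei, and -1.50 and 1.83. Pklr, the liver pyruvate kinase, was at 91.2 and 197 CPM (log2 1.10) and kept its sign at 0.64 and 0.95. Pdk4, the kinase that shuts pyruvate dehydrogenase, was at 63 and 11.9 CPM (log2 -2.31), with -1.96 and -0.21. List medians were 0.28 for 15 fatty acid synthesis genes (-0.35 and -0.16 in the sets), 0.43 for 17 cholesterol synthesis genes (-0.28 and 0.22), 0.17 for 18 fatty acid oxidation genes (-0.02 and 0.11) and 0.25 for 15 glucose genes (-0.17 and 0.30).

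Remaining lists moved little or with the sets. The 57 measured ribosomal protein genes had a median of -0.08, with 2 at least 2-fold higher and 3 lower (all genes 4.74% and 7.6%). Their medians were -0.88 and 0.19 within the sets. Of 10 immediate early genes and 5 nuclear long noncoding RNAs, 0 were at least 2-fold apart. Of 13 clock genes 1 was lower, Npas2, a partner of the clock activator, at -2.72 over all nuclei but -4.32 and 1.66 in the sets. Of 12 growth hormone axis genes 2 were lower, Igfbp2 and Socs2 (-1.06), with a list median of -0.57.

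RNAs that mark other liver and blood cells were higher in the 2N pool over all nuclei and moved with the spike-in set. In high-spike nuclei the list median log2 was 0 for macrophage, 0.43 for endothelial, 0.16 for stellate and 0.63 for cholangiocyte genes. For erythroid genes it was -1.23 there, and for lymphocyte and neutrophil genes -1.46. In no-spike nuclei all 6 medians were negative, from -1.26 to -0.67. Nuclei with counts of at least 3 markers of any 1 of 6 other cell classes made up 84.6% of no-spike and 76% of low-spike 2N nuclei but 0 of 39 high-spike 2N nuclei. In 4N they were 88.9% of no-spike and 8.11% of high-spike nuclei. All 4 measured erythroid genes, 4 of 7 macrophage genes and 5 of 8 endothelial genes were at least 2-fold lower in 4N. So were 2 of 6 stellate cell genes, 1 of 2 cholangiocyte genes and 4 of 4 lymphocyte and neutrophil genes. The endothelial genes Oit3 and Tek were higher. Of all measured genes, 7.6% were lower and 4.74% higher. A rare marker passes the limit for measured genes more easily where it is high, and the 2N group has more nuclei. These marker counts may therefore lean toward genes lower in 4N. The highest summed erythroid level was 939 CPM in 2N and 115 in 4N, with medians of 18 and 0. For macrophage markers the highest was 1133 and 57.1 CPM, for endothelial markers 308 and 191 CPM, for stellate markers 2865 and 317 CPM, for cholangiocyte markers 938 and 401 CPM, and for lymphocyte and neutrophil markers 1510 and 16.3 CPM. The lowest was 0 in both groups for all 6 lists.

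Hbb-bs, a haemoglobin beta gene whose reads a near-identical copy may share, was counted in 49 2N and 10 4N nuclei (log2 -2.29). S100a8, a neutrophil calcium-binding protein, was counted in 28 2N nuclei, up to 755 CPM, and in 0 of 46 4N nuclei, which allows a share of up to 6.52%. Its mean was 73.3 CPM in low-spike 2N nuclei and 0.222 in no-spike 2N nuclei. The pericyte marker Rgs5 reached 2753 CPM in 1 high-spike 2N nucleus, against a highest 4N value of 4.08 CPM. The defining markers Alas2 (erythroid), Clec4g (endothelial), Lrat and Des (stellate) and Krt7 (cholangiocyte) were at 0 in all P18 nuclei. Without nuclei with at least 3 markers of another cell type, the median log2 difference was -1.25 for fetal liver genes, -0.05 for pericentral and -0.22 for periportal genes, -0.53 for the P0 end and 0.16 for the P60 end of maturation. Glul then stood at -1.86 and H19 at -2.30, while Elmo1, of the genes named by rule, went from -2.10 to -0.26.

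By rule, 14 genes above and 14 below in 4N were named, as those with the largest difference in the share of thinned nuclei with a count among genes at least 2-fold apart by 3 measures of level. Their values over all nuclei follow from that choice and are a description. The higher genes were chosen from 257 that qualified. Kcnk5, a potassium channel, had a count in 39.8% of 2N and 78.3% of 4N nuclei and means of 59.7 and 191 CPM (log2 1.66, with -0.17 in no-spike and 0.92 in high-spike nuclei). Ces1f, a carboxylesterase, had 34% and 71.7%, and 47 and 146 CPM (log2 1.61). The others were Smg5 (nonsense-mediated decay), Lipg (a lipase), Ftl1 (ferritin light chain), Rara (a retinoic acid receptor), Fasn, Gtf2h2, Mcm10, Mitd1, Pklr, Gmppa, Suds3 (a Sin3 complex subunit) and RP24-245K18.4, which has no annotated role here.

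Of these 14, only Gtf2h2, Gmppa and RP24-245K18.4 were at least 2-fold higher within both spike-in sets. Gtf2h2, a subunit of the TFIIH transcription and repair factor, was at 19 and 70.9 CPM (log2 1.84, with 2.68 and 1.94 in the sets). It was counted in 26 of 103 2N and 27 of 46 4N nuclei. Gmppa, a subunit of the enzyme complex that makes GDP-mannose, was at 17.8 and 61.5 CPM (log2 1.74, with 1.54 and 2.098). Ces1f was -4.41 in no-spike and 1.08 in high-spike nuclei. At the other ages neither gene had a common direction: Gtf2h2 was -2.25, 0.06 and -0.10, and Gmppa -0.26, 1.25 and -0.15, on the log2 scale at P0, P9 and P60.

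The lower genes came from 464 that qualified. Elmo1, which activates the small GTPase Rac, was at 109 and 24.6 CPM (log2 -2.10), counted in 57 of 103 and 16 of 46 nuclei, and stood at -2.03 in no-spike and 0.14 in high-spike nuclei. Sult2a1, Sult2a2 and Sult2a5, steroid sulfotransferases whose reads may be split among near-identical copies, had -1.14, -1.56 and -2.82 over all nuclei, and between -0.67 and 0.49 within the sets. Sult2a5 was at 736 CPM in low-spike 2N nuclei and 110 in no-spike 2N nuclei. The others were Taz (tafazzin), Cyp2f2, Lpl (lipoprotein lipase), Pdk4, Efna1, Atf5, Ywhab (a 14-3-3 protein), Vps4b (of the membrane-scission machinery), Grb10 and H19.

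Efna1, Atf5 and H19 were at least 2-fold lower within both sets. Efna1, the ligand ephrin A1, ranged from 0 to 872 CPM in 2N with a median of 11.1, and from 0 to 211 CPM in 4N with a median of 0 (log2 -2.15, with -2.92 and -1.49). Atf5, a stress-response transcription factor, was at 68.8 and 23.4 CPM (log2 -1.51, with -1.12 and -1.59). Over P0, P9 and P60 edgeR gave Efna1 0.72 ± 0.42 (p = 0.114, adjusted p = 0.999) and Atf5 -0.10 ± 0.42 (p = 0.808, adjusted p = 0.999). Of the 14 lower genes, 12 had a negative difference over those ages. Of the 12 higher genes tested there, 2 had a positive one. The median log2 was -0.54 for the lower genes, -0.70 for the higher genes and -0.19 over all genes of that fit. Both named sets thus leaned negative, and these signs do not set the lower genes apart.

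**Figure D5:**
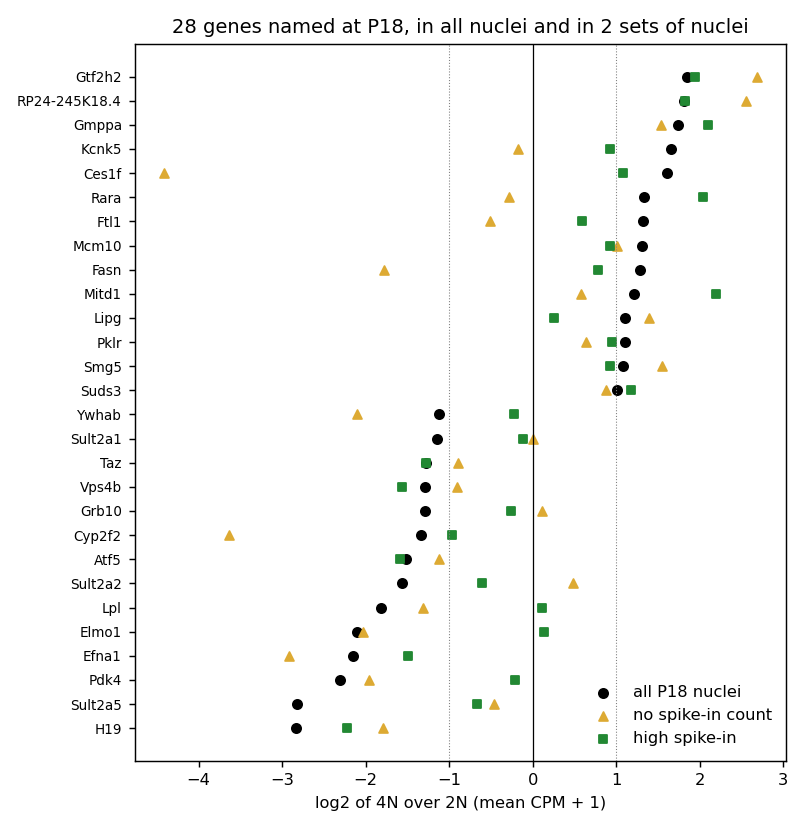
The log2 difference of 4N over 2N (mean CPM plus 1) for the 28 genes named by rule, over all P18 nuclei (black circles), no-spike nuclei (triangles) and high-spike nuclei (squares), with dotted lines at 2-fold. Triangles and squares lie on the same side past 2-fold for 3 of the 14 higher and 3 of the 14 lower genes.

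Across all measured genes, few were past 2-fold in the same direction in both sets. In no-spike nuclei 1067 genes were at least 2-fold higher (11.6%) and 1839 lower (20%) in 4N, on 39 and 9 nuclei, and in high-spike nuclei 1168 were higher (12.7%) and 760 lower (8.26%), on 39 and 37 nuclei. Both sets gave the same direction past 2-fold for 206 higher and 224 lower genes (2.24% and 2.43%), and opposite directions for 478 genes (5.19%).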

How the data were processed

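The authors deposited 1 table of raw counts per gene and nucleus, with 40824 genes and 92 spike-in RNAs. Per the submitters' processing notes, TopHat2 2.1.0, HISAT2 2.1.0, featureCounts 1.5.3 and 2.0.0, HTSeq 0.6.0 and UMI-tools 0.5.0 were used in the series on GRCm38. Which of them made these counts, whether they count reads or molecules, and whether strand was used is not stated by the labels or the table. Per the labels' protocols, cDNA was amplified in 4 + 16 cycles. Columns of 122 other nuclei were not used here.

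Nuclei were grouped by their titles, and no 2 P18 nuclei held identical counts. Spike-ins were left out of all totals. Levels are CPM per nucleus, averaged over nuclei, or CPM of summed counts where stated, and log2 differences use a pseudocount of 1 CPM. Genes with a count in at least 15 P18 nuclei were called measured. With 1 pool per group, genes at least 2-fold apart were counted without a test. Intervals are exact 95% Poisson or Clopper-Pearson intervals and cover counting error only, as does the limit of 3 nuclei or counts given beside a 0. Thinning drew 22000 counts per nucleus and left out 14 2N nuclei and 1 4N nucleus.

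Pools of P0, P9, P18 and P60 were summed and tested with edgeR 4.0.16 (quasi-likelihood, TMM, age as a block, Benjamini-Hochberg adjustment, threshold 0.05) in R 4.3.3, with DESeq2 1.42.0 as an alternative. Since no label ties a pool to an animal, the p-values reflect variation among pools alone, which may be technical. Numbers in the titles number nuclei and pair nothing. On simulated pools with the fitted spread, the test over 4 ages recovered 15% of genes changed 4-fold and 87.2% of those changed 16-fold (11023 genes). The simulation gave all genes the same spread and changed only well-counted genes. Its shares may therefore not hold for genes counted in few nuclei.

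Named genes are Top2a, Mki67 and Kif11, the 14 higher and 14 lower genes with the largest difference in the share of thinned nuclei with a count among genes at least 2-fold apart in mean CPM, in summed CPM and without each group's highest nucleus, and the members of each list that lie farthest apart. Symbols ending in Rik or made of Gm and a number were not named, which passed over 1 gene. Thresholds on Glul and Slc1a2 and the genes named from the DESeq2 calls were chosen after the values were seen. The members and the lists were chosen with earlier results of these data known. Alternatives were another pseudocount, other filters, thinning, leaving out nuclei with cell cycle counts or the highest nucleus, other scaling, and leaving out each age. Nuclei split by spike-in, without G2-rich nuclei or without nuclei with other cells' markers were added after seeing the data.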

Additional observations from a re-analysis of the deposited data

Results flagged for a closer look

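Atf5 at P18 stood apart from the other ages. Its 4N over 2N log2 difference in summed counts was -1.467 at P18, against -0.04 at P0, 0.06 at P9 and -0.15 at P60. The P18 value lies farther from the nearest other age than 4 values usually do. Atf5 was named for its P18 difference, which makes a P18 value that stands apart more likely. With 31 named genes looked at, the usual chance rate of about 1 in 20 does not apply here. By edgeR's quasi-likelihood test the P18 difference departed from that of the other ages by -1.40 ± 0.86 on the log2 scale (p = 0.132, Benjamini-Hochberg adjusted p = 1).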

How the results depend on the processing

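Of 310 values of the 31 named genes under alternatives, 13 had another sign, 10 of them within a spike-in set. In no-spike nuclei these were Ces1f (-4.41), Fasn (-1.78), Ftl1 (-0.51), Kcnk5 (-0.17), Rara (-0.28), Grb10 (0.11), Sult2a1 (0.0035) and Sult2a2 (0.49), and in high-spike nuclei Elmo1 (0.14) and Lpl (0.12). Without the G2-rich nuclei, all of them 4N, Top2a was -2.55 and Kif11 -0.28, and without Top2a or Mki67 nuclei Kif11 was -0.58. The total of 1136 genes at least 2-fold apart became 290 with a pseudocount of 10 CPM, 3277 without nuclei with a rare G2 gene (which leaves 30 2N and 10 4N nuclei), 2906 in no-spike and 1928 in high-spike nuclei, 1745 without nuclei with other cells' markers, and 2572 with genes seen in at least 3 nuclei. Higher genes were 38.4% of those apart in the main comparison, 60.6% in high-spike nuclei and 52.8% without nuclei with other cells' markers. The 2N share with a Top2a or Mki67 count moved from 37.9% to 12.4% after thinning, 7.77% with at least 3 counts, 64.1% in no-spike and 12.8% in high-spike nuclei, and the 4N share from 23.9% to 66.7% in no-spike nuclei. The 4N over 2N ratio of median counts, 1.63, was 0.673 in no-spike nuclei. Several of these alternatives hold fewer nuclei, and the cause of the changes was not tested.

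edgeR as fitted in the report called 0 genes in each of the 3 comparisons. Over 4 ages, DESeq2 called 14 and edgeR with no filter 30, and leaving out each age gave 0 to 7, with 7 without P60, all in the G2 and mitosis list. Over P0, P9 and P60 the counts were 14 with DESeq2, 19 with no filter and 2 without Top2a or Mki67 nuclei, and 0 to 22 leaving out each age (21 without P9, 22 without P60). For P18 against the other ages they were 7, 6 and 2. No replicate numbers pair the pools. Without age as a replicate block, the fit over 4 ages called 0 genes. The number of nuclei limits the shares, whose 95% intervals run from 28.5 to 48% in 2N and from 12.6 to 38.8% in 4N.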
